A study of Mus musculus with 5 samples.

Results

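The NF-κB subunits and their inhibitor and feedback genes were examined in 3′ RNA sequencing (Quant-seq) of mouse bone marrow progenitors with and without intact Bcor, a transcriptional corepressor of the Polycomb complex PRC1.1. The set comprised 10 genes taken by symbol from the 52550 genes of the count table. The subunits were Nfkb1, Nfkb2, Rel, Rela and Relb, and the inhibitors and feedback genes were Nfkbia, Nfkbie, Nfkbiz, Tnfaip3 and Bcl3. All 10 passed the filter on low counts, as did 11766 of the 52550 genes in all. The question was how the messages of this pathway compared between Bcor-mutant and wild-type progenitors.

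NF-κB is a family of dimeric transcription factors. In resting cells the dimers are held in the cytoplasm by IκB proteins. Signals from cytokine and pattern recognition receptors pass through adaptors and the IKK kinases, which mark IκB for degradation and free the dimers to enter the nucleus. The dimers then switch on genes of inflammation and survival, and among these are genes that shut the pathway down again, including Nfkbia and Tnfaip3. In myeloid cells the pathway is known for its part in inflammatory responses and cell survival.

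KL cells, a bone marrow population sorted as Lin-cKit+Sca1-, came from 3 BcorΔE9-10 samples (scl-Cre-ERT +, Bcorfl/y) and 2 BcorWT samples (scl-Cre-ERT +, Bcorwt/y) at a 20-week time point. Both groups carried the tamoxifen-inducible Cre and both were given 1 mg tamoxifen intraperitoneally on each of 5 days at an age of 3 to 6 months. The Cre is driven by a stem cell enhancer of Scl, so that recombination starts in haematopoietic stem cells, and it removes exons 9 and 10 of Bcor and leaves a truncated product. The p-values below measure the spread between these 5 libraries, since the sources used here do not say whether each came from a single mouse.

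The libraries held 5998924 to 8303999 counts. Values are given as counts relative to library size, scaled by the trimmed mean of M values (CPM), and differences as log2 fold changes of BcorΔE9-10 over BcorWT from limma-voom, with p-values adjusted over 11766 genes and a threshold of 0.05. Bcor itself, counted mainly at its 3′ end and so outside the deleted exons, measured 23.2, 27.4 and 21.6 CPM in BcorΔE9-10 and 11.8 and 16.2 CPM in BcorWT, which does not check the deletion. Of the genes that define the sorted cells, Kit was at 53.4, 50.1 and 49.4 CPM in BcorΔE9-10 and at 18.2 and 19.6 CPM in BcorWT. The 8 markers of KL progenitors summed to between 7049 and 8358 CPM in BcorΔE9-10 and between 7548 and 8345 CPM in BcorWT, with 2 of them higher in BcorΔE9-10. Ly6a, which encodes Sca1, had 3 to 8 counts in each library, and Ly6g, a lineage marker that the sort removes, was still at 208 to 570 CPM and lower in BcorΔE9-10. Itgam, the other tested gene of those the sort removes, measured 120 to 132 CPM in BcorΔE9-10 and 96 CPM in BcorWT. It was not called (log2 fold change 0.37, adjusted p = 0.0618, limma). Markers of maturing neutrophils were abundant in all 5 libraries and summed to between 149640 and 173550 CPM in BcorΔE9-10 and between 216250 and 228655 CPM in BcorWT, with 6 of 10 lower in BcorΔE9-10. Most of this sum came from S100a8 and S100a9, whereas Camp, at 22737 to 26916 CPM in BcorΔE9-10 and at 18448 and 23816 CPM in BcorWT, was not called, and the groups overlapped for Camp, Mmp8, Cxcr2 and Retnlg. Because these are bulk samples, fewer cells of a type and less RNA per cell cannot be told apart.

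Tnfaip3 and Nfkb1 rose and Rela fell in BcorΔE9-10 KL cells. These were 3 of the 10 members past the threshold, against 10.1% of all genes tested. After correction for the GC content of the transcript ends 1 of the 10, Tnfaip3, was past the threshold, where 983 of 11766 genes were. The 2 higher calls before correction stood against 6.02% of all genes, and the 1 lower call against 4.09%. Group values did not overlap for 2 members that were higher and 3 that were lower in BcorΔE9-10, where 22.6% of all genes were higher and 20.3% lower without overlap. The median log2 fold change of the 10 members was -0.04, and that of all genes tested was 0.0043.

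**Figure D1:**
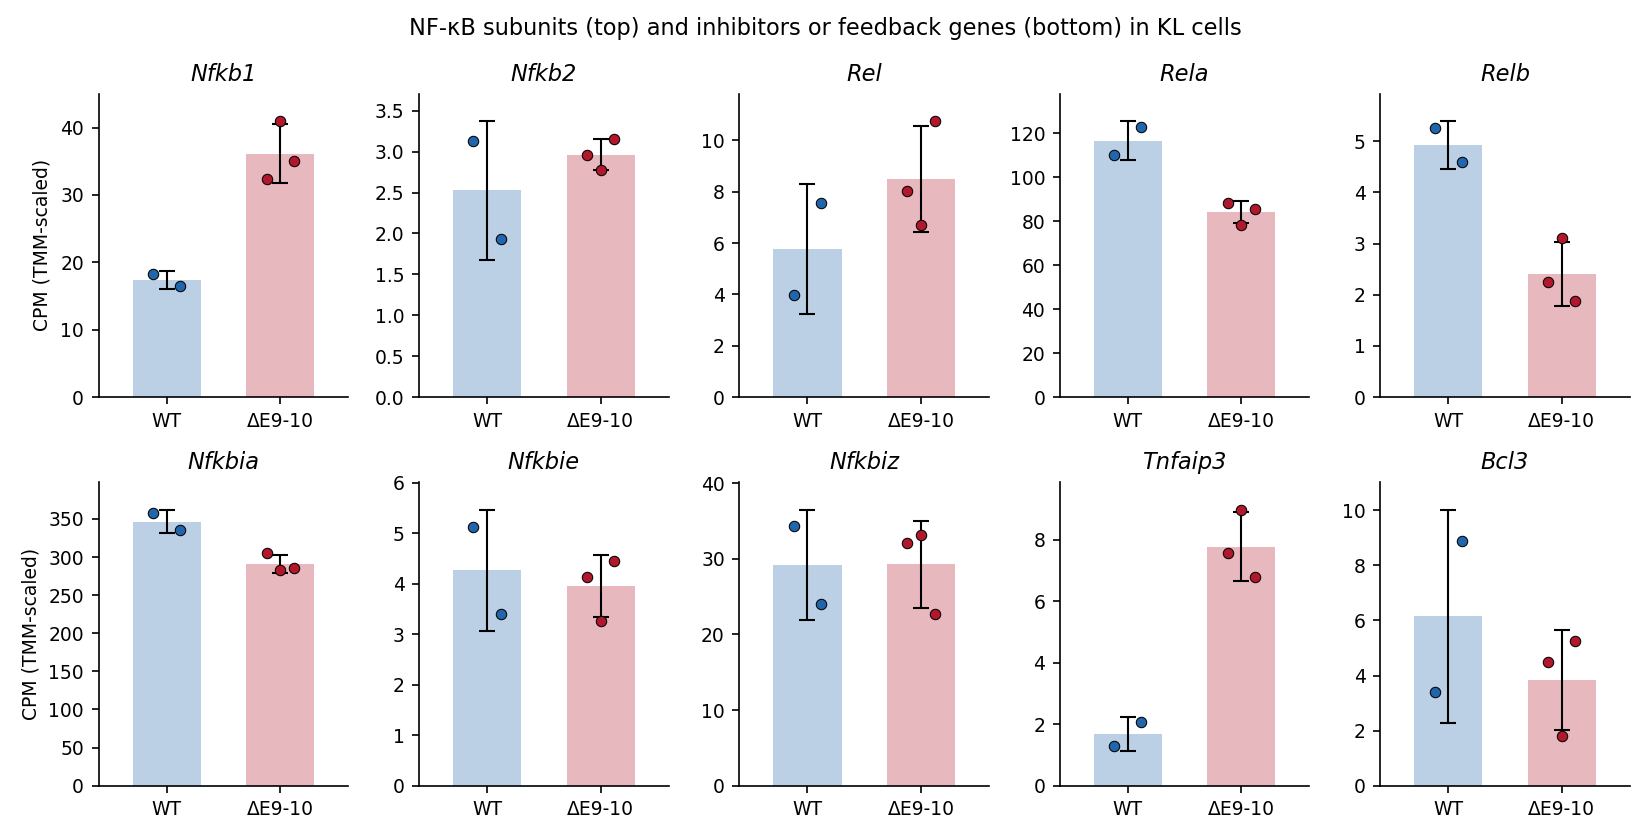
Level of each of the 10 genes in CPM (vertical axes, linear and each on its own scale, starting at 0) in BcorWT (blue) and BcorΔE9-10 (red). Points are libraries, bars are group means and error bars are 1 SD (n = 2 and n = 3). Tnfaip3 and Nfkb1 are higher in all 3 BcorΔE9-10 libraries than in both BcorWT libraries, and Rela, Relb and Nfkbia are lower.

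Among the subunits, Nfkb1 (ENSMUSG00000028163, chr3:135584655-135691547 on the minus strand, mm10) encodes p105, the precursor of p50. It measured 32.4, 41.0 and 35.1 CPM in BcorΔE9-10 and 18.3 and 16.4 CPM in BcorWT. Every BcorΔE9-10 library lay above both BcorWT libraries. The means were 36.1 ± 4.39 CPM (SD, n = 3) and 17.4 ± 1.32 CPM (SD, n = 2), a 2.08-fold difference and a log2 fold change of 1.03 (SE 0.191), with an adjusted p of 0.00266 by limma. This call did not hold when the GC trend of each library was removed, as described below.

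Rela (ENSMUSG00000024927, chr19:5637483-5648130, plus strand) encodes p65, the main activating partner of p50. It was at 88.2, 78.5 and 85.7 CPM in BcorΔE9-10 and at 110 and 123 CPM in BcorWT. The groups did not overlap, and the direction was the opposite of that of Nfkb1. The means were 84.1 ± 5.03 CPM (SD, n = 3) and 117 ± 8.94 CPM (SD, n = 2), and the log2 fold change was -0.47 (SE 0.123, adjusted p = 0.0236, limma). Among the members that passed the test, Rela was the one nearest to the threshold. The call was lost with libraries scaled by total counts alone (-0.32, adjusted p = 0.125), after GC correction, and when any one BcorΔE9-10 library or BcorWT library 2 was left out (adjusted p of 0.0502 to 0.11).

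Relb (ENSMUSG00000002983, chr7:19606217-19629438, minus strand) encodes the transactivating subunit of the non-canonical branch, in which it pairs with p52. It had 19, 19 and 16 counts in BcorΔE9-10 and 37 and 31 counts in BcorWT, or 2.25, 3.10 and 1.87 CPM against 5.25 and 4.59 CPM. The groups did not overlap, but the log2 fold change of -1.09 (SE 0.403) had an adjusted p of 0.1 by limma and did not pass the threshold. Its 95% interval ran from -1.94 to -0.23.

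Nfkb2 (ENSMUSG00000025225, chr19:46304737-46312090, plus strand) encodes p100, the precursor of p52. It measured 2.96, 2.77 and 3.16 CPM in BcorΔE9-10 and 3.12 and 1.93 CPM in BcorWT. The ranges overlapped, and the log2 fold change was 0.26 with a 95% interval of -0.72 to 1.24 (adjusted p = 0.772, limma). It had 13 to 27 counts per library. The end of Nfkb2 lies under an exon of Psd on the other strand, and the sources used here do not state whether counting used strand, so that its value is uncertain.

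Rel (ENSMUSG00000020275, chr11:23736847-23770970, minus strand) encodes c-Rel, a subunit best known from lymphocytes. It was at 8.04, 6.69 and 10.8 CPM in BcorΔE9-10 and at 3.98 and 7.56 CPM in BcorWT. The lowest BcorΔE9-10 library fell between both BcorWT libraries. The log2 fold change was 0.63 (SE 0.348) with a 95% interval of -0.10 to 1.37 and an adjusted p of 0.272 by limma.

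Among the inhibitors and feedback genes, Tnfaip3 (ENSMUSG00000019850, chr10:19000910-19015657, minus strand) encodes A20, a ubiquitin-editing enzyme that ends signalling from TNF and Toll-like receptors. It had 64, 55 and 58 counts in BcorΔE9-10 and 9 and 14 counts in BcorWT. These counts correspond to 7.56, 8.98 and 6.78 CPM against 1.28 and 2.07 CPM. All 3 BcorΔE9-10 libraries lay far above both BcorWT libraries, and the exact Poisson intervals of the nearest pair did not meet, the lower bound of the lowest BcorΔE9-10 library being 5.15 CPM and the upper bound of the highest BcorWT library 3.48 CPM. These intervals cover counting error only.

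The mean of Tnfaip3 was 7.77 ± 1.11 CPM (SD, n = 3) in BcorΔE9-10 and 1.68 ± 0.563 CPM (SD, n = 2) in BcorWT, a 4.64-fold difference. The log2 fold change was 2.18 (SE 0.497, 95% interval 1.13 to 3.23, adjusted p = 0.0107, limma), the furthest from 0 of the 10 members. It passed the threshold by edgeR (2.20, adjusted p = 0.00204) and DESeq2 (2.20, adjusted p = 0.000275) as well. The call was lost in the fit without BcorWT library 1, where 1 BcorWT library remained (1.83, adjusted p = 0.107).

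Nfkbia (ENSMUSG00000021025, chr12:55489410-55492647, minus strand) encodes IκBα, the inhibitor that NF-κB itself induces to close the feedback loop. It measured 305, 283 and 286 CPM in BcorΔE9-10 and 358 and 336 CPM in BcorWT. The groups did not overlap. The log2 fold change was -0.25 (SE 0.102, 95% interval -0.47 to -0.03) and its adjusted p of 0.134 by limma missed the threshold.

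The other 3 genes of this group did not pass the test. Nfkbie (ENSMUSG00000023947, chr17:45555716-45563169, plus strand), which encodes IκBε, was at 4.14, 3.26 and 4.44 CPM in BcorΔE9-10 and at 5.11 and 3.41 CPM in BcorWT. Nfkbiz (ENSMUSG00000035356, chr16:55811375-55838899, minus strand), which encodes the inducible nuclear protein IκBζ, measured 32.0, 33.1 and 22.7 CPM in BcorΔE9-10 and 34.4 and 24.0 CPM in BcorWT. Bcl3 (ENSMUSG00000053175, chr7:19808462-19822770, minus strand) encodes a nuclear IκB family member that binds p50 and p52 dimers.

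Bcl3 was at 4.49, 1.80 and 5.26 CPM in BcorΔE9-10 and at 3.41 and 8.89 CPM in BcorWT. The groups overlapped for each of Nfkbie, Nfkbiz and Bcl3. Their log2 fold changes were -0.07 (95% interval -0.88 to 0.73), -0.01 (95% interval -0.45 to 0.43) and -0.54 (95% interval -1.54 to 0.46), with adjusted p-values by limma of 0.93, 0.981 and 0.509. The intervals of Nfkbie and Nfkbiz leave out a change of 2-fold in either direction, and that of Bcl3 does not leave out a fall of that size. The sign of the Nfkbie and Nfkbiz values turned with the scaling.

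**Figure D2:**
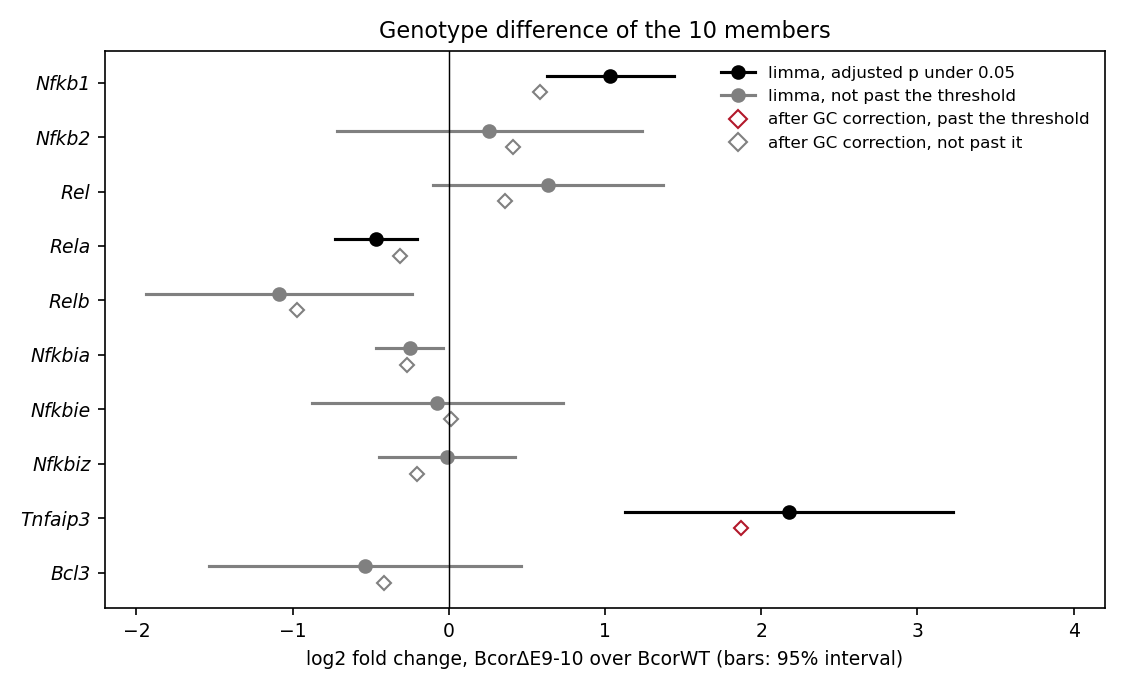
Log2 fold change of BcorΔE9-10 over BcorWT (horizontal axis) for each of the 10 genes. Filled points with bars are limma estimates with 95% intervals, black where the adjusted p was under 0.05 and grey elsewhere, and open diamonds are the estimates after GC correction, red where the adjusted p stayed under 0.05. Tnfaip3, at 2.18 and at 1.87 after correction, is the 1 member past the threshold in both.

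The direction of change across all genes went with the base composition of the 3′ ends from which the reads came. Genes were divided into 5 classes of like size by the GC content of the last 300 transcript bases. In the lowest class 12.3% were called higher and 1.43% lower, and in the highest class 2.3% were called higher and 6.64% lower. The ends of Nfkb1, Tnfaip3 and Rel had GC contents of 22.3%, 28.0% and 29.3%, in the lowest class, and that of Rela had 53.7%, in the highest. The 2 members called higher therefore had GC-poor ends and the member called lower a GC-rich end. Nfkbiz, at 32.3% also in the lowest class, had a log2 fold change of -0.01.

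When a smooth trend on GC content was removed from each library, Tnfaip3 stayed past the threshold with a log2 fold change of 1.87 (SE 0.493, adjusted p = 0.0262, limma). Nfkb1 moved to 0.59 (SE 0.186, adjusted p = 0.0623) and Rela to -0.31 (SE 0.124, adjusted p = 0.135), and neither passed it. The count of members called was then 1 of 10, beside 983 of all 11766 genes tested. None of the 271 words of 30 bases in the last 300 bases of each member occurred in another gene, and no exon of another gene lay over those bases except that of Psd over Nfkb2.

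**Figure D3:**
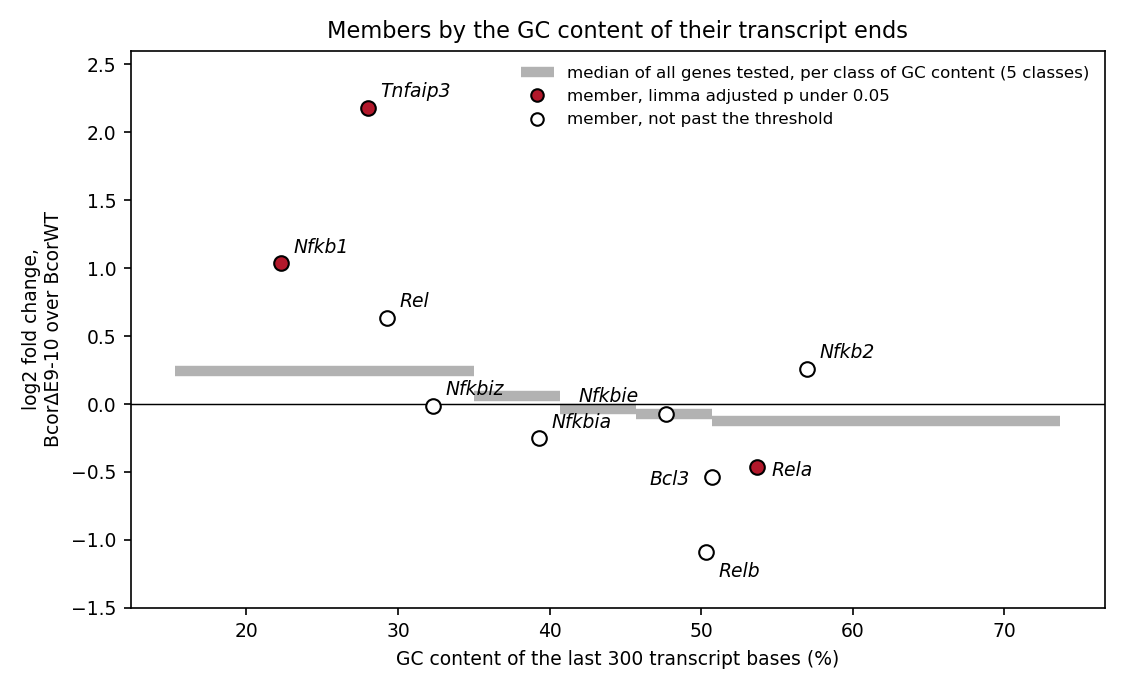
Log2 fold change (vertical axis) against the GC content of the last 300 transcript bases in percent (horizontal axis) for the 10 genes, red where the limma adjusted p was under 0.05. Grey bars mark the median of all genes tested in each of 5 classes of GC content, from 0.24 in the lowest to -0.13 in the highest. Tnfaip3, Nfkb1, Rel and Nfkb2 lie above the median of their class, Rela, Relb, Bcl3, Nfkbia and Nfkbiz below it, and Nfkbie close to it.

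The κB consensus, the 10-base motif to which NF-κB dimers bind, was searched on both strands of the RefSeq promoter windows (250 bases before to 50 bases after each gene start, GRCm38.p6, the same build as mm10). Windows were found for 7 of the 10 members. Nfkb1, Relb and Nfkbiz had no window and were not searched. At least 1 match was present in 6 of these 7, in Nfkb2, Rel, Nfkbia, Nfkbie, Tnfaip3 and Bcl3, and none in Rela. A match was present in 4.51% of all 32851 windows and in 5.14% of 27025 genes. The first match of each gene, and both matches of Tnfaip3 as the member furthest from 0, are shown with their flanks, 30 bases each in the direction of the gene, with the bases that match on either strand in capitals.
Tnfaip3, chr10:19015403-19015432, minus strand: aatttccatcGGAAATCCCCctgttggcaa
Tnfaip3, chr10:19015516-19015545, minus strand: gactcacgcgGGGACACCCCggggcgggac
Nfkbia, chr12:55492657-55492686, minus strand: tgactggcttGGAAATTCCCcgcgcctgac
Nfkbie, chr17:45555584-45555613, plus strand: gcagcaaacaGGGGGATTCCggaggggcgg
Rel, chr11:23771042-23771071, minus strand: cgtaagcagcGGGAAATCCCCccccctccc
Nfkb2, chr19:46304688-46304717, plus strand: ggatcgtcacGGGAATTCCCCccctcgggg
Bcl3, chr7:19822734-19822763, minus strand: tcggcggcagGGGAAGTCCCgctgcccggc

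The Nfkbia match ended 20 bases before the gene start and the nearer Tnfaip3 match 3 bases before it, and both Tnfaip3 matches lay within an intron of a longer GENCODE transcript. The match of Bcl3 began at base 3 of the gene and lay in an untranslated part of an exon. In Rel and Nfkb2 overlapping matches cover 11 bases. Of the 6 members with a match, 1 (Tnfaip3) was called higher and none lower, with log2 fold changes from -0.54 for Bcl3 to 2.18 for Tnfaip3. Nfkb1, the other member called higher, was not searched. Across the 489 tested genes with a match, 5.73% were called higher and 4.91% lower, and across all 8300 tested genes with a window 5.42% were called higher and 4.48% lower. A match in these windows describes the sequence and does not show binding.

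Of 100 other genes of the pathway, 83 passed the filter, and 6 were called higher and 2 lower. That is 9.64%, close to the 10.1% of all genes tested, and their median log2 fold change was -0.0029. Among 25 tested adaptors and upstream kinases 3 were higher, namely Birc2, an inhibitor of apoptosis protein that acts as a ubiquitin ligase (log2 fold change 0.83, adjusted p = 0.0164), Bcl10, which links antigen and lectin receptors to IKK (0.75, adjusted p = 0.00661), and Tab2, which recruits the kinase TAK1 to ubiquitin chains (0.68, adjusted p = 0.0157). Irak1 at 0.03 and Myd88 at -0.33, the adaptors with the highest levels among those not called, did not pass limma's test. The call of Bcl10 was lost after GC correction (0.51, adjusted p = 0.0565), that of Birc2 without either BcorWT library, and that of Tab2 without BcorΔE9-10 library 3 or BcorWT library 1. Over all 16 alternatives the log2 fold change ran from 0.76 to 1.00 for Birc2, from 0.42 to 0.93 for Tab2 and from 0.51 to 0.89 for Bcl10.

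Among the 5 IKK and IKK-related kinases, Chuk and Tbk1 rose, 2 of 5 genes where 6.02% of all genes tested were called higher. Chuk, which encodes IKKα, was at 20.2, 24.3 and 19.5 CPM in BcorΔE9-10 and at 7.38 and 12.9 CPM in BcorWT, with a log2 fold change of 1.11 (SE 0.258, adjusted p = 0.0124, limma). Tbk1, an IKK-related kinase of interferon responses, was at 23.2, 25.1 and 29.8 CPM in BcorΔE9-10 and at 11.5 and 14.7 CPM in BcorWT, with a log2 fold change of 1.00 (SE 0.219, adjusted p = 0.00845, limma). Neither gene's groups overlapped. Ikbkb, the catalytic kinase of the canonical branch, measured 63.0, 43.7 and 49.7 CPM in BcorΔE9-10 and 55.1 and 56.9 CPM in BcorWT, with a log2 fold change of -0.11 (95% interval -0.44 to 0.23). The call of Chuk and that of Tbk1 were each kept after GC correction and lost without BcorWT library 1.

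Of 18 tested ubiquitin editors and other negative regulators, 1 was higher and 1 lower, or 11.1% called against 10.1% of all genes tested. Irak3, which encodes the kinase-dead IRAK-M that restrains Toll-like receptor signalling in myeloid cells, measured 49.1, 50.4 and 56.4 CPM in BcorΔE9-10 and 20.4 and 23.1 CPM in BcorWT. Its log2 fold change was 1.26 (SE 0.171, adjusted p = 0.000249, limma), with no overlap of the groups, and it passed the threshold in all 16 alternative analyses that were run. Nlrx1, a mitochondrial NOD-like receptor family member, fell by 0.63 on the log2 scale (adjusted p = 0.0248), a call lost after GC correction, with total counts alone and in 4 of the 5 fits without 1 library. Tax1bp1 and Cyld, which respectively assist A20 and remove ubiquitin chains, had log2 fold changes of 0.06 and -0.08.

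Of 12 tested receptors, Nod1 alone was called (-0.58, adjusted p = 0.0423, limma), and it was kept in 6 of 16 alternatives, the GC correction not among them. The 1 call of 12 is 8.33%, against 10.1% of all genes tested. The median of the receptors was -0.42, with 9 of 12 values negative, where the median of all genes tested was 0.0043 and 5835 of 11766 values were negative. Tnfrsf1a, the main TNF receptor, was at 117, 103 and 128 CPM in BcorΔE9-10 and at 133 and 140 CPM in BcorWT, and its log2 fold change of -0.23 did not pass the test (adjusted p = 0.258). None of the 3 other IκB genes passed by limma, edgeR or DESeq2, and 0 of them had an unadjusted limma p under 0.05. Nfkbib and Nfkbid, those with the highest levels, had log2 fold changes of -0.25 and -0.55.

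None of the 22 tested inflammatory target genes passed the threshold by limma, edgeR or DESeq2, where limma called 10.1% of all genes tested, and 2 of them had an unadjusted limma p under 0.05. Their log2 fold changes had a median of 0.06, with 11 above 0 and 11 below. Tnf, one of these 2 and named after its value was seen, measured 17.7, 16.5 and 18.3 CPM in BcorΔE9-10 and 28.5 and 20.2 CPM in BcorWT (log2 fold change -0.45, adjusted p = 0.168). The other, Ccl3, also named after its value was seen, had 110, 55 and 66 counts in BcorΔE9-10 and 59 and 23 counts in BcorWT (0.84, adjusted p = 0.179). Vcam1 and Irf1, the targets with the highest levels, had log2 fold changes of -0.05 and -0.22. The other 8 genes of the list had too few counts to be tested.

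**Figure D4:**
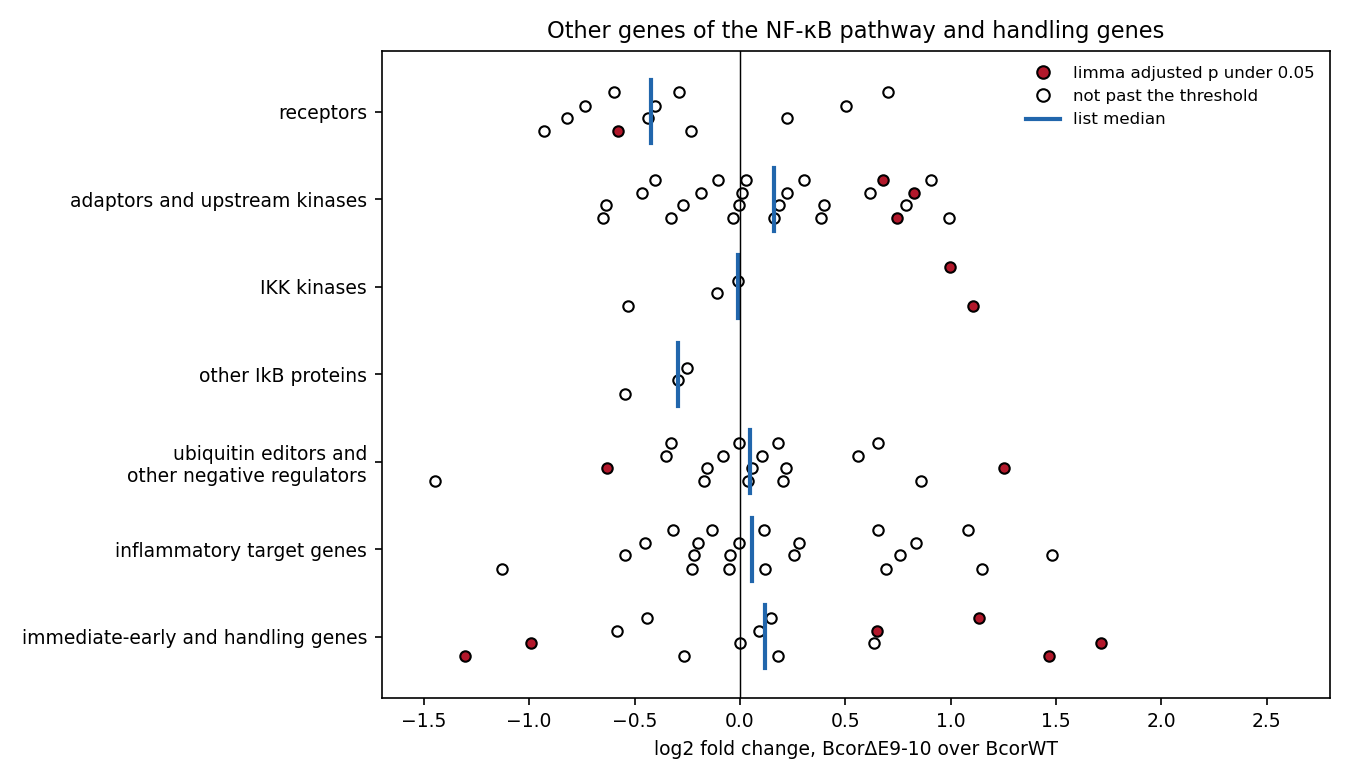
Log2 fold change of BcorΔE9-10 over BcorWT (horizontal axis) for the tested genes of each list, with 1 point per gene, red where the limma adjusted p was under 0.05, and a blue line at the list median. No inflammatory target gene is red, and the medians run from -0.42 for the receptors to 0.16 for the adaptors and upstream kinases.

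Tnfaip3 also belongs to the genes that respond within minutes to stimulation, and such genes can respond to handling of cells. Of 14 tested immediate-early and handling genes 6 were called, or 42.9% against 10.1% of all genes tested. By edgeR 6 of the list were called and by DESeq2 4. Its median log2 fold change was 0.12, with 9 values above 0 and 5 below. Higher were 4 of them, namely Fos (log2 fold change 1.71), Nr4a1 (1.47), Fosb (1.14) and Zfp36 (0.65), and lower were the heat shock genes Hspa1b (-1.31) and Hspa1a (-0.99). The last are near-identical copies between which counting can split reads. Fos was the 1 gene of these 6 whose call was kept in all 16 alternatives. Over these, Fosb ran from 0.46 to 1.83, Zfp36 from 0.34 to 0.97, Nr4a1 from 1.10 to 1.82, Hspa1a from -1.46 to -0.52 and Hspa1b from -1.79 to -0.84, and the groups of Fosb and of Hspa1a overlapped. Fos, the gene of this list furthest from 0, was at 334, 333 and 209 CPM in BcorΔE9-10 and at 107 and 69.6 CPM in BcorWT. Jun, which had the highest level among those not called, measured 591, 412 and 335 CPM in BcorΔE9-10 and 500 and 293 CPM in BcorWT, and its groups overlapped (log2 fold change 0.18). Ier5, the next in level among those not called, had a log2 fold change of -0.44, and its groups overlapped as well. The part of sample handling in the difference of Tnfaip3 was not tested.

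Marker lists of other cell types were compared between the genotypes. Summed markers of monocytes and macrophages were at 1165 to 1230 CPM in BcorΔE9-10 and 1513 to 1515 CPM in BcorWT, with 1 of 7 tested markers lower. Most of this sum came from that marker, Ly6c2, while Vcam1, Csf1r, Cx3cr1 and Adgre1 overlapped between the groups. Those of basophils, mast cells and eosinophils were at 418 to 589 CPM against 990 to 1283 CPM, with 5 of 8 lower and 1, Gata2, higher. Prg2 gave most of this sum, at 389, 233 and 308 CPM against 817 and 691 CPM, and Ms4a2 overlapped between the groups. Summed markers of T and NK cells were at 134 to 174 CPM against 188 to 193 CPM, with 0 of 5 tested markers called by limma, edgeR or DESeq2 and 3 at an unadjusted limma p under 0.05. Most of this sum came from Nkg7, at 164, 122 and 156 CPM against 183 and 184 CPM, whereas the NK cell receptor gene Ncr1 was at 2.72, 2.94 and 4.79 CPM against 0.994 and 1.48 CPM. Erythroid markers were at 120 to 306 CPM against 67.7 to 111 CPM, with 1 of 7 tested markers called higher by limma, 4 called by edgeR, 1 by DESeq2 and 6 at an unadjusted limma p under 0.05. The globin genes Hbb-bs, Hbb-bt, Hba-a1 and Hba-a2 each overlapped between the groups, with Hba-a1 at 14.4, 25.3 and 68.0 CPM against 5.40 and 15.3 CPM. Gata1 ran the other way at a log2 fold change of -1.09 and was not called. The lowest sum of each group came mostly from Tfrc, at 62.9 CPM in BcorΔE9-10 library 1 and 46.2 CPM in BcorWT library 1. B cell markers overlapped at 46.0 to 67.8 CPM and 41.9 to 64.9 CPM with Ms4a1 at 0 in every library, and dendritic cell markers overlapped as well at 97.2 to 117 CPM and 86.7 to 114 CPM. The part of cell composition in the differences of the 10 genes was not tested.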

How the data were processed

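The authors trimmed 75 bp single-end Quant-seq reads with cutadapt (1.7 in the submitters' processing notes), aligned them to mm10 by HISAT2 and assigned them to genes by featureCounts (Subread 1.5.0-p3). The deposited values are raw counts. Strand and multimapping options are not given in the sources used here. Gene symbols were matched by Ensembl ID to GENCODE M21 for 52403 of 52550 genes. Genes were filtered with filterByExpr (minimum count 10, total 15), scaled by TMM and tested with limma-voom (limma 3.58.1, edgeR 4.0.16, R 4.3.3) on all 5 libraries, with Benjamini-Hochberg adjustment over 11766 genes. edgeR's quasi-likelihood test and DESeq2 (1.42.0), other scalings and filters, a GC correction (lowess, span 0.3) and fits without each library were alternatives. The fits were tested on simulated data.

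The members and lists were chosen with earlier results of these data known. All 10 members are named. Of each other pathway list, the genes past the threshold (at most 6) and at most 2 others, those with the highest level, are named, besides Tnf and Ccl3, which were named after their values were seen, as were the cell type markers. The replicate numbers are only names in the labels. Libraries of the same number in both groups had deviations from the group means with correlations of 0.0852 and 0.0907. The deviations of the 2 BcorWT libraries mirror each other, so these values are not separate checks and cannot decide whether libraries were paired. No pair of libraries of a group agreed within sampling noise (chi-square per gene 6.01 to 11.6).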

Additional observations from a re-analysis of the deposited data

How the results depend on the processing

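Over 16 alternatives (15 for Tnfaip3, which was not tested with at least 10 counts required in every library), 138 of 159 values of the members kept their direction and their side of the threshold, 10 lost the call and 11, all of members that were not called, turned direction. Members called fell from 3 to 1 with the GC correction, with or without the replicate block, and were 2 in each fit without 1 library. Nfkb1 lost its call under both GC corrections (0.59 and 0.60) and held it in the other 14. Over all genes 1189 calls became 558 to 1200 without 1 library (558 without BcorWT replicate 1, 723 without BcorΔE9-10 replicate 3, 774 without BcorΔE9-10 replicate 2), and the 8 calls among other pathway genes became 2 to 9 (2 without BcorWT replicate 1, 5 without BcorΔE9-10 replicate 3). The cause was not tested.

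Without 1 library, log2 fold changes ran from 0.95 to 1.11 for Nfkb1, from -0.065 to 0.60 for Nfkb2, from 0.16 to 1.09 for Rel, from -0.55 to -0.38 for Rela, from -1.24 to -0.93 for Relb, from -0.29 to -0.21 for Nfkbia, from -0.35 to 0.21 for Nfkbie, from -0.26 to 0.24 for Nfkbiz, from 1.83 to 2.51 for Tnfaip3 and from -1.24 to 0.14 for Bcl3. Values that turned direction were -0.065 for Nfkb2 without BcorWT replicate 2, 0.14 for Bcl3 without BcorWT replicate 2, 0.026 and 0.21 for Nfkbie without BcorΔE9-10 replicate 2 and BcorWT replicate 1, and 0.16 and 0.24 for Nfkbiz without BcorΔE9-10 replicate 3 and BcorWT replicate 1. Nfkbie was also at 0.066 with total counts alone, at 0.017 with the GC correction and at 0.013 after drawing all libraries down to the smallest, and Nfkbiz at 0.14 with total counts alone.

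The replicate block, in which BcorΔE9-10 library 3 has no partner and adds nothing to the genotype term, called 1454 genes, 3 members and 11 other pathway genes, and turned Nfkbiz to 0.15. Scaling by total counts alone moved the median of all genes to 0.149 and called 1210 genes higher and 197 lower, against 708 and 481. Depth limits Tnfaip3 most in BcorWT, where counting error alone spans 0.584 to 2.43 CPM and 1.13 to 3.48 CPM.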
